A study of Mus musculus with 6 samples.

Results

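p65 (RelA) binding sites lying 10 to 50 kb from the nearest gene start were described in epidermal cells of adult mice and of aged mice given a control IgG (the Aged/Control IgG group, here aged IgG) or antibodies against IL-17A and IL-17F (the Aged/Anti-IL-17A/F group, here aged anti-IL-17). A peak was taken when its midpoint lay 10000 to 49999 bp from the nearest transcription start site (TSS) among the curated RefSeq transcripts of mm10 and when that start belonged to a protein-coding gene. This gave 1958 of 8525 adult peaks (23.0%, 95% Wilson interval 22.1–23.9%), 993 of 4169 aged IgG peaks (23.8%, 22.6–25.1%) and 1447 of 6014 aged anti-IL-17 peaks (24.1%, 23.0–25.2%). The 3 conditions thus had close to the same share of their peaks at this distance, and their numbers differed as the lists did.

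All mice were C57BL/6J. The adult mice, 17 to 25 weeks old, were untreated, and the aged mice had been injected intraperitoneally with IgG or with both antibodies for 12 weeks from an age of 73 weeks. Epidermal cells of 4 mice per condition were used for chromatin immunoprecipitation of p65 followed by sequencing (ChIP–seq), and the reads of the 4 mice were merged before the peaks were called. There is therefore 1 peak list per condition and no replicate, so that no test between conditions was possible. All intervals cover counting error only, peaks are not replicates, and the read depth behind a peak is unknown from these lists. Age and injection changed together between adult and aged mice and cannot be told apart. Of the 6 samples of the series, the 3 inputs were not analysed here.

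The names of the peaks go against 1 of the labels. Each peak of the list deposited for the adult sample carries the same prefix, reading Treated, as those of the aged anti-IL-17 list, while the aged IgG list carries a control prefix. The conditions below are those of the sample labels. If the adult and aged anti-IL-17 lists had been exchanged at deposit, every value given for one would belong to the other. The aged IgG peaks themselves would stay as they are, but their overlap with adult and with aged anti-IL-17 would change places.

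p65 is the main activating subunit of nuclear factor κB (NF-κB), a family of dimers that are held in the cytoplasm by inhibitors and enter the nucleus when cytokines such as IL-17, IL-1 or TNF signal. In the nucleus it binds short DNA motifs that begin with GGG and end with CC, at promoters and at enhancers, which can lie many kilobases from the gene they act on, upstream, downstream or in introns. In keratinocytes NF-κB is known for its part in the defense response, survival and growth control. The nearest gene is used below as a name for a site and is not shown to be its target.

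Several of the strongest sites called in all 3 lists carried NF-κB motifs near the summit, the position of highest signal, and others had none there. The sequences below, from the RefSeq assembly GRCm38, are the 101 bp centred on the summit at 5 of the 10 strongest such regions, shown because a match lies within the printed window. Capitals mark the bases covered by matches on either strand, and the name is the nearest protein-coding gene. Adjoining matches on opposite strands can overlap, as in the first.
Gm826 (chr2:160313813-160313913): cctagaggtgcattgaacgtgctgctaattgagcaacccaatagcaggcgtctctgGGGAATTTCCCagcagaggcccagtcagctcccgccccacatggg
Cdcp2 (chr4:107119162-107119262): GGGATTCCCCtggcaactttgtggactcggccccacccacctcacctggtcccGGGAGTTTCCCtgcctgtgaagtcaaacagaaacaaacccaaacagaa
Ets2 (chr16:95728972-95729072): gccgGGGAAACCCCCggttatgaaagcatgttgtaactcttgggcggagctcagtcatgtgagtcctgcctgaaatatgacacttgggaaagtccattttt
Ppfia1 (chr7:144567137-144567237): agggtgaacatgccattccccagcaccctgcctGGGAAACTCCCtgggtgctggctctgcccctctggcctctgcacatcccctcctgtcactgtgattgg
Hivep3 (chr4:119785122-119785222): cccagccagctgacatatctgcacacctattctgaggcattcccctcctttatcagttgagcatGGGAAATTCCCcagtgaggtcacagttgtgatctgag

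The chromosome 12 interval between Psma6, a proteasome subunit gene, and Nfkbia, the gene of the inhibitor IκBα, held a row of strong sites. The following 3 windows are shown because they are its strongest sites with a motif.
Psma6, nearer (chr12:55434003-55434103): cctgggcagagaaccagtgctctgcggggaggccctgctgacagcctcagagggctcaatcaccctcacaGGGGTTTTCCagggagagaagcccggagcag
Psma6, farther (chr12:55443288-55443388): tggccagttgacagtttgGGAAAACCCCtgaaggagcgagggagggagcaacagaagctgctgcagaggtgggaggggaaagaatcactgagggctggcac
Nfkbia (chr12:55446829-55446929): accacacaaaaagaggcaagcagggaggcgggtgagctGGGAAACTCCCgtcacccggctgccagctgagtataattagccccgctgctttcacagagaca

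Sites absent from 1 or 2 lists could carry equally good matches, and 1 example each is shown from regions called in adult and aged anti-IL-17 (Tmem131l), in both aged lists (Ccdc114) and in aged anti-IL-17 alone (Hrh1).
Tmem131l (chr3:84021864-84021964): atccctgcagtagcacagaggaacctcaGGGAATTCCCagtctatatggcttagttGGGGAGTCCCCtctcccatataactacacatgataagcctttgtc
Ccdc114 (chr7:45939859-45939959): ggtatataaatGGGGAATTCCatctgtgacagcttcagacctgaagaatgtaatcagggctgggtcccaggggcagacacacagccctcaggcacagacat
Hrh1 (chr6:114421237-114421337): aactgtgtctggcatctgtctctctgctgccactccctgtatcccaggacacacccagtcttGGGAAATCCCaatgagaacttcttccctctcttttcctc

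Peaks at 10 to 50 kb fell about equally in introns and between genes. In adult, 925 (47.2%) were intronic, 996 (50.9%) intergenic and 37 (1.89%) exonic. The aged IgG list had 470 (47.3%), 504 (50.8%) and 19 (1.91%), and the aged anti-IL-17 list 676 (46.7%), 736 (50.9%) and 35 (2.42%), respectively. Positions taken every 1000 bp over the part of the genome at the same distance, 649711 in all, were intronic in 48.3%, intergenic in 48.1% and exonic in 3.66% of cases. The genomic share of introns lay inside the counting interval of the peaks in each list (45.0–49.5% in adult), whereas the genomic share of exons lay above the upper bounds of 2.59% in adult, 2.97% in aged IgG and 3.35% in aged anti-IL-17. The genomic share of intergenic positions lay below the interval in adult (48.7–53.1%) and aged anti-IL-17 (48.3–53.4%) and inside it in aged IgG (47.6–53.9%).

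Of the intronic peaks, 81.1% in adult, 83.2% in aged IgG and 80.8% in aged anti-IL-17 lay in an intron of the gene whose start was nearest, and the others lay in a neighbouring gene. Intronic and intergenic peaks differed little in strength or motif. Median fold enrichment over the local background was 3.75 for intronic and 3.76 for intergenic adult peaks, and the NF-κB motif was present at 30.7% and 31.1% of them. Their overlap with aged IgG was 47.9% and 48.1%.

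Within the range that the rule set, near distances were more frequent. The median was 21922 bp in adult, 21490 bp in aged IgG and 21971 bp in aged anti-IL-17, and of the adult peaks 843 (43.1%) lay at 10 to 20 kb but 219 (11.2%) at 40 to 50 kb, against 37.7% and 15.7% of the genomic positions. In aged IgG these shares were 44.8% and 10.6%, and in aged anti-IL-17 42.5% and 11.3%. Peaks upstream of the nearest TSS made up 43.8% in adult, 43.0% in aged IgG and 44.6% in aged anti-IL-17, against 42.8% of genomic positions at this distance. At the borders, the nearest adult peak inside lay at 10008 bp and the last one outside at 9993 bp, and the farthest inside lay at 49950 bp and the next at 50085 bp.

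Peaks at 10 to 50 kb were somewhat stronger and narrower than those at promoters and lay in DNA of lower GC content. The medians of fold enrichment were 3.75, 3.98 and 3.84 in adult, aged IgG and aged anti-IL-17, against 3.34, 3.60 and 3.41 within 1 kb of a TSS. The highest values were 23.5, 16.5 and 19.4, respectively. Median widths were 437, 429 and 439 bp, against 483, 446 and 460 bp within 1 kb. Median GC content around the summit was 51.2% in each list and 63.7 to 64.7% within 1 kb, with a median of 3 CpG dinucleotides against 15 to 16. In strength and width the peaks resembled those at 1 to 10 kb (medians of 3.74 to 3.90) and beyond 50 kb (3.75 to 3.91). Another peak lay within 10 kb of 34.8% of them in adult, 21.8% in aged IgG and 26.1% in aged anti-IL-17, close to the 35.6%, 22.7% and 28.0% of all peaks of these lists of unequal length.

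The NF-κB motif was more frequent at 10 to 50 kb than at promoters. It was found within 100 bp of the summit at 607 adult peaks (31.0%, 29.0–33.1%), 397 aged IgG peaks (40.0%, 37.0–43.1%) and 561 aged anti-IL-17 peaks (38.8%, 36.3–41.3%). Over all peaks of each list, the shares were 28.5%, 37.8% and 34.9%, respectively. Equally wide windows, placed 2000 bp away on both sides of these peaks, held it in 2.04%, 2.11% and 2.04%. Compared with peaks within 1 kb, the share was higher by 8.81 percentage points in adult (95% Newcombe interval 6.28–11.4), 8.01 in aged IgG (4.03–12.0) and 11.3 in aged anti-IL-17 (8.12–14.5). The differences from peaks at 1 to 10 kb and beyond 50 kb had intervals that included 0 in every list.

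**Figure D1:**
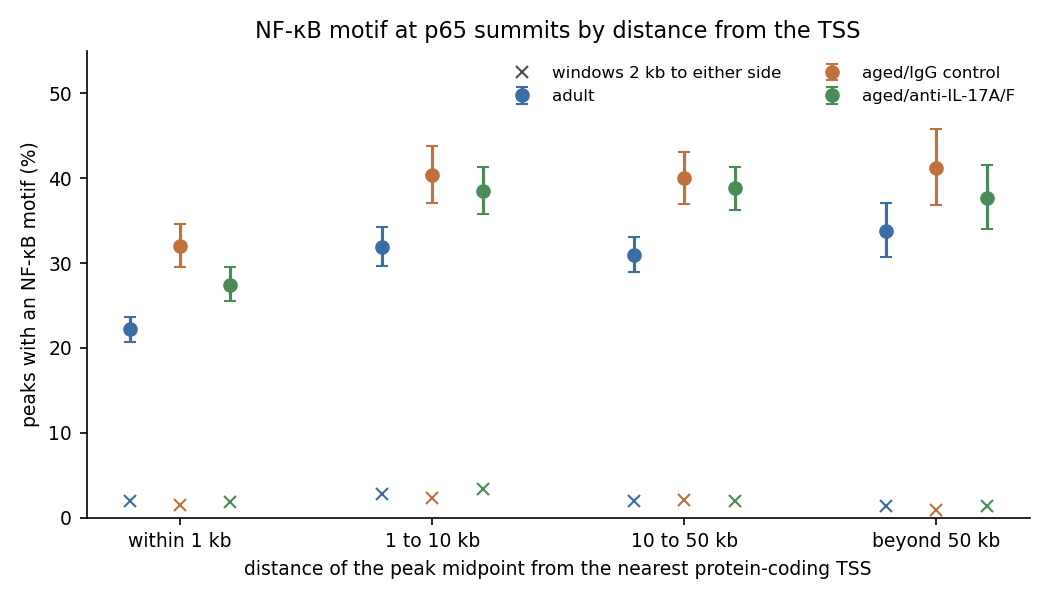
Share of p65 peaks with an NF-κB motif within 100 bp of the summit (y axis, %) in 4 classes of distance from the nearest protein-coding TSS (x axis), for the 3 lists, with 95% Wilson intervals. Crosses give windows 2000 bp to either side. Each list has its lowest share within 1 kb, and the 10 to 50 kb class (31.0%, 40.0% and 38.8%) lies close to its neighbours on either side.

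The motif share depended on strength. When each whole list was cut into 3 equal groups by fold enrichment, the 10 to 50 kb peaks had the motif in 12.5%, 28.0% and 47.2% of the weakest, middle and strongest group in adult. In aged IgG the shares were 25.8%, 42.2% and 48.8%, and in aged anti-IL-17 24.9%, 38.9% and 49.8%. The excess over promoters was found outside the strongest group, although the intervals overlapped in the weakest adult group (9.91–15.6% at 10 to 50 kb and 8.11–11.4% within 1 kb) and in the middle aged IgG group (37.0–47.5% and 27.9–37.2%). In the strongest group, peaks within 1 kb had the motif in 45.3% (adult), 54.4% (aged IgG) and 51.7% (aged anti-IL-17), while in the middle group they had it in 19.0%, 32.4% and 25.2% and in the weakest in 9.62%, 16.2% and 12.9%. GC content differed between the distance classes, as given above, and its part in the motif shares was not tested. The lower share in adult moved with the length of the list: with every list cut to its strongest members, as many as the smallest list holds, it was 42.0% in adult, 40.0% in aged IgG and 43.8% in aged anti-IL-17.

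The same few forms of the motif led in every list. GGGACTTTCC, the form known from the immunoglobulin κ enhancer, was the most frequent, at 80 adult peaks (13.2% of those with a match), 51 aged IgG peaks (12.8%) and 75 aged anti-IL-17 peaks (13.4%). It was followed by GGGGATTTCC, GGGAGTTTCC, GGGGAATTCC and GGGAAATTCC in the same order in each list. Most aged peaks overlapped adult peaks, as given below, so these orders are not independent. In adult these 4 made up 8.24%, 8.07%, 7.58% and 6.92% of peaks with a match, against 4.76%, 3.53%, 3.53% and 2.61% within 1 kb. Matches lay a median of 20 bp from the summit in adult, 25 bp in aged IgG and 21 bp in aged anti-IL-17. More than 1 match was present at 20.6 to 21.4% of peaks with any.

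Motifs of epidermal transcription factors were present beside that of NF-κB. The AP-1 motif TGANTCA (both strands), bound by Fos and Jun dimers, was found at 353 of 1958 adult, 180 of 993 aged IgG (18.1%) and 272 of 1447 aged anti-IL-17 peaks (18.8%), against 6.59%, 7.0% and 7.01% in the flanking windows. Within 1 kb of a TSS it was at 4.74%, 5.35% and 5.58%, differences of 13.3, 12.8 and 13.2 percentage points whose intervals excluded 0. The other distances were alike, with 16.6%, 17.4% and 17.3% at 1 to 10 kb and 20.0%, 20.7% and 20.3% beyond 50 kb. The intervals of those differences included 0 in each list. Grainyhead-like (GRHL) factors, which control epidermal barrier genes, bind AACNNGTT. This was found at 8.84%, 9.57% and 8.64%, against 2.45%, 2.32% and 2.63% in the flanks. Beyond 50 kb it was at 8.39%, 10.4% and 9.08%, with intervals of the difference that included 0. At 1 to 10 kb it was at 6.89%, 7.31% and 5.57%, and the interval excluded 0 in adult and aged anti-IL-17 only.

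The C/EBP motif TTGCNNAA was found at 12.3%, 10.4% and 11.6% (flanks 7.79%, 7.65% and 7.46%), and the TEAD motif GGAATG at 15.0%, 15.7% and 16.0% (flanks 10.3%, 10.9% and 10.3%). Beyond 50 kb C/EBP was more frequent, at 16.8%, 16.7% and 15.0%, and the interval of the difference excluded 0 in each list. The RUNX motif TGTGGT, at 15.6 to 16.0%, was close to the flanks (16.0 to 16.4%) and more frequent than beyond 50 kb (12.4%, 10.1% and 12.5%), again with intervals that excluded 0. The short E-box CANNTG and ETS motif GGAAG were common in peaks and flanks, at 73.1% and 57.7% of adult peaks and 68.7% and 49.4% of their flanks. The E-box was less frequent within 1 kb (46.8%, 46.1% and 46.7%) and ETS less frequent beyond 50 kb (50.8%, 50.4% and 49.0%). The intervals of these differences excluded 0 in each list. GRHL motifs were less frequent where NF-κB had a match, at 5.93% against 10.1% of peaks without one in adult, 6.30% against 11.7% in aged IgG and 5.70% against 10.5% in aged anti-IL-17, with intervals of the difference that excluded 0. For AP-1 the shares were 15.7% and 19.1%, 15.9% and 19.6%, and 16.0% and 20.5%, and the interval excluded 0 in aged anti-IL-17 but included it in adult and aged IgG.

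**Figure D2:**
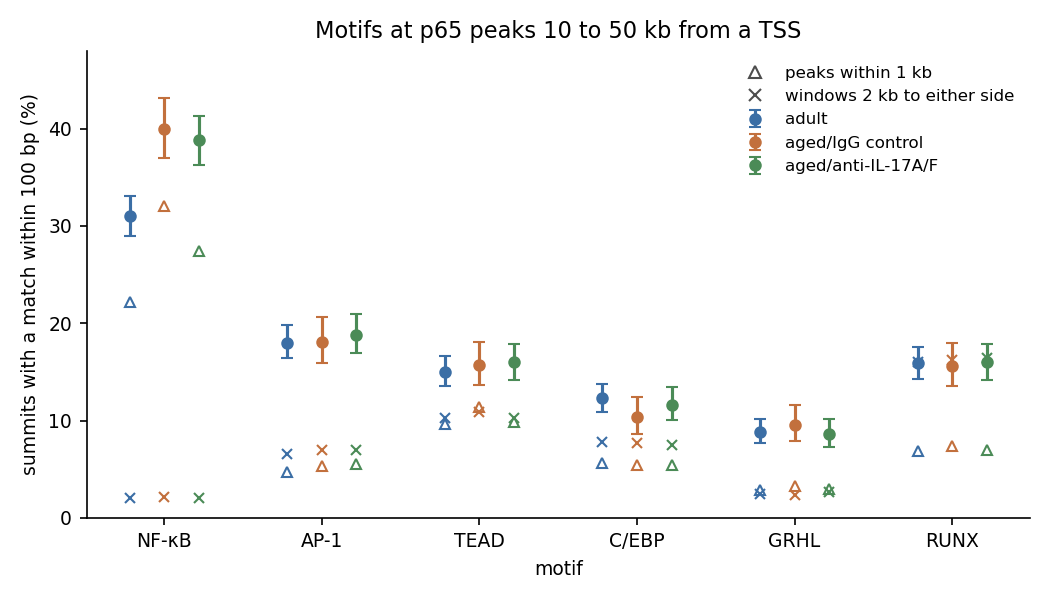
Share of 10 to 50 kb peaks with a match within 100 bp of the summit (y axis, %) for 6 motifs (x axis) in the 3 lists, with 95% Wilson intervals. Open triangles give peaks within 1 kb of a TSS and crosses windows 2000 bp to either side of the 10 to 50 kb peaks, so that NF-κB, AP-1 and GRHL stand well above their flanks and RUNX does not.

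Sites of aged IgG were nearly all present in adult, whereas many adult sites were absent from aged IgG. Of the 993 aged IgG peaks, 941 (94.8%) overlapped an adult peak by at least 1 bp, beside 93.3% of all peaks of that list. Of the 1958 adult peaks, 938 (47.9%, 45.7–50.1%) overlapped an aged IgG peak, beside 45.5% over the whole list, and 1253 (64.0%) overlapped an aged anti-IL-17 peak, beside 60.4%. In the other directions, 886 aged IgG peaks (89.2%) were in aged anti-IL-17 (86.6% of the whole list), and of the aged anti-IL-17 peaks 1251 (86.5%) were in adult (85.6%) and 884 (61.1%) in aged IgG (59.9%). All 6 shares lay slightly above those of the whole lists. Compared with peaks within 1 kb, sharing of adult peaks was higher by 7.82 percentage points with aged IgG (4.99–10.7) and by 8.75 with aged anti-IL-17 (5.95–11.5). Within the 3 strength groups, weakest first, the shares in aged IgG were 15.9%, 34.2% and 84.2% at 10 to 50 kb and 14.4%, 34.2% and 86.5% within 1 kb. Those in aged anti-IL-17 were 34.0%, 54.5% and 94.8%, and 29.8%, 56.0% and 94.1%. For aged IgG and aged anti-IL-17 peaks in adult the differences from peaks within 1 kb were 1.69 and 0.224 points, with intervals that included 0, and between the aged lists they were 4.74 points (aged IgG in aged anti-IL-17) and 4.26 points (the reverse), with intervals that excluded 0. Compared with 1 to 10 kb, all intervals included 0. Compared with peaks beyond 50 kb, sharing was higher by 2.91 points for aged IgG in adult (0.229–6.04), 3.98 for aged IgG in aged anti-IL-17 (0.358–7.96) and 4.92 for aged anti-IL-17 in adult (1.55–8.52), and the other 3 intervals included 0.

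Sharing followed peak strength. Among the weakest of 10 equal groups of the adult list, 22 of 138 peaks at 10 to 50 kb (15.9%) were in aged IgG and 46 (33.3%) in aged anti-IL-17, and in the strongest all 192 were in both. The corresponding values of the aged anti-IL-17 list in aged IgG were 28 of 94 (29.8%) and 135 of 135. When each list was cut to the number of peaks in the smallest, the share of adult peaks found in aged IgG was 71.6% and that in aged anti-IL-17 75.7%, while the share of aged IgG peaks found in adult was 77.0%. Lists of equal length give nearly equal shares in both directions by construction. With the full adult and aged anti-IL-17 lists exchanged, the shares of 47.9% and 64.0% given above for adult peaks would read 61.1% and 86.5%.

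**Figure D3:**
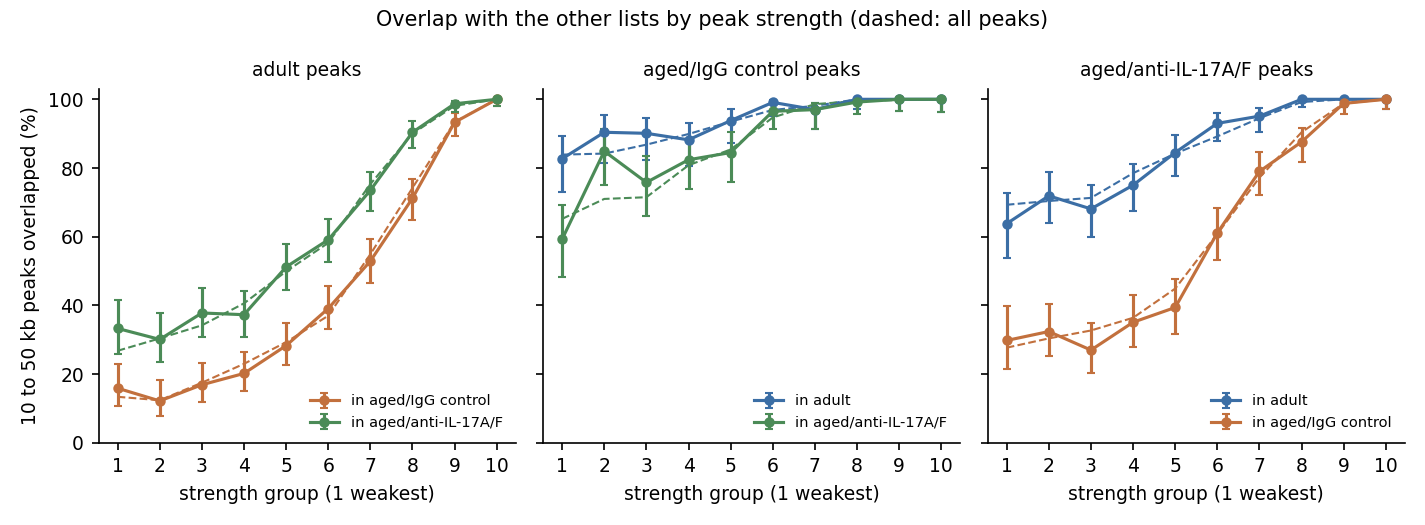
Share of 10 to 50 kb peaks overlapped by a peak of another list (y axis, %) in 10 equal groups of each list by fold enrichment, weakest first (x axis), with 95% Wilson intervals. Dashed lines give all peaks of the list and run close to the 10 to 50 kb peaks. Sharing of adult peaks with aged IgG rises from 15.9% to 100%.

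Adult peaks with an NF-κB motif were shared more often than those without. Of those with a match 63.4% were in aged IgG and 81.7% in aged anti-IL-17, against 40.9% and 56.0% of those without, differences of 22.5 (17.8–27.0) and 25.7 (21.5–29.6) percentage points. Within the 3 strength groups, the difference for aged IgG shrank to 6.41, 5.51 and 3.45 points with intervals that included 0. For aged anti-IL-17 it was 22.7 points in the middle group (14.8–30.0), where 141 of 199 peaks with a motif and 246 of 511 without were shared, and the intervals of the other groups included 0. Of aged anti-IL-17 peaks, 88.2% with a motif and 85.3% without were found in adult, and of aged IgG peaks 96.5% and 93.6%, with intervals of the difference that included 0. In the middle group of aged anti-IL-17 peaks the order was the opposite, since 82.1% of those with a motif and 89.9% of those without were found in adult, and the interval of that difference excluded 0. Aged IgG peaks with a motif were found in aged anti-IL-17 more often than those without (95.2% and 85.2%, a difference of 9.98 points, 6.31–13.5), and in their weakest group the difference was 15.8 points (4.53–24.7). For aged anti-IL-17 peaks in aged IgG it was 10.9 points (5.73–15.8), with intervals that included 0 in each strength group.

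Merging overlapping peaks gave 2183 regions, of which 863 (39.5%) were called in all 3 lists, beside 36.6% of the 9513 regions made from all peaks. A further 629 (28.8%) were called in adult alone and 389 (17.8%) in adult and aged anti-IL-17 but not in aged IgG. In aged anti-IL-17 alone there were 175 (8.02%), in adult and aged IgG 75 (3.44%), in aged IgG alone 32 (1.47%) and in both aged lists but not adult 20 (0.916%). The same classes held 8.01%, 3.91%, 1.84% and 1.05% of all regions. Of the 9513 regions made from all peaks, 3002 (31.6%) were called in adult alone and 1616 in adult and aged anti-IL-17 only. The sizes of all classes were thus near those of the whole series. In 4 regions the peak of another list had its midpoint outside the 10 to 50 kb range. The motif was present at 43.1% of regions called in all lists (39.8–46.4%), 31.9% of those in adult and aged anti-IL-17, 32.0% of those in aged anti-IL-17 alone, 17.3% of those in adult and aged IgG, 15.9% of those in adult alone and 15.6% of those in aged IgG alone. Of the 20 regions in both aged lists but not adult, 9 had it (45%, 25.8–65.8%). Regions present in aged anti-IL-17 but not in aged IgG thus carried it more often than regions of adult alone (13.2–19.0%). Median fold enrichment was 3.13 in regions of adult alone, 3.02 in those of aged anti-IL-17 alone and, in adult, 3.54 in those of adult and aged anti-IL-17.

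In the 863 regions of all lists, adult had a median fold enrichment of 5.17, aged IgG of 4.19 and aged anti-IL-17 of 4.66. Region by region, the ratio of aged IgG to adult had a median of 0.814 (quartiles 0.688 and 0.972), with 191 regions above 1. The ratio of aged anti-IL-17 to adult had a median of 0.904, with 303 above 1, and that of aged anti-IL-17 to aged IgG a median of 1.10, with 576 above 1. Fold enrichment depends on the efficiency of each immunoprecipitation, whose part in these ratios was not tested, and the values have no replicate check.

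The strongest region called in all 3 lists lay in an intron of Gm826 on chromosome 2 (chr2:160313456-160314268), 13627 bp downstream of its TSS, with a fold enrichment of 23.5 in adult, 15.5 in aged IgG and 19.4 in aged anti-IL-17. A region 26638 bp downstream of Ets2, an ETS family transcription factor, had 16.5, 13.1 and 13.8. The region 29572 bp upstream of Hivep3, which encodes a zinc-finger protein that itself binds κB motifs, had its highest value in aged IgG, with 15.7, 16.5 and 12.6.

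Others of the 10 strongest were found near Cdcp2 (14.0, 14.0 and 15.0), Mrpl45, a mitochondrial ribosomal protein gene (21.2, 13.1 and 13.8), Ppfia1, encoding liprin-α (16.9, 13.9 and 12.8), Tcf7l2, the Wnt pathway transcription factor TCF4 (15.7, 12.7 and 15.3), and Tap2, a peptide transporter of antigen presentation (18.9, 14.1 and 12.2), in adult, aged IgG and aged anti-IL-17, respectively. The site assigned to Ppfia1 lay 13507 bp from its start and 15205 bp from that of Fadd, the adaptor of death receptors. At Mrpl45 and Tcf7l2, no match to the motif was present within 100 bp of the summit, and at Tap2 the single match lay 91 bp away. Of these 8 regions, that of Mrpl45 spread most among the conditions, with adult highest.

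**Figure D4:**
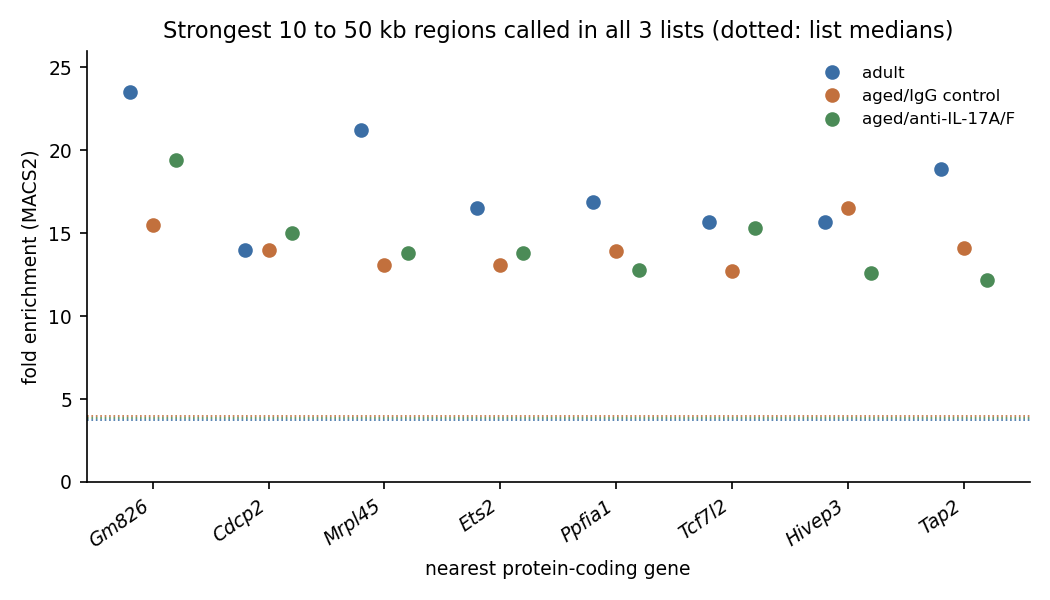
Fold enrichment (y axis, ratio to the local background) of 8 of the 10 strongest 10 to 50 kb regions called in all 3 lists, each named by its nearest protein-coding gene (x axis). Each point is 1 list, with no replicates, and dotted lines are the list medians of 3.75, 3.98 and 3.84. All points lie above 12, and adult is highest in 6 of the 8.

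Regions missing from a list were weaker, and the medians above compare with 5.17 in adult and 4.66 in aged anti-IL-17 in regions of all lists. The leading regions of adult alone, near Ank, which encodes a pyrophosphate transporter, Cyp26b1, a retinoic acid-degrading enzyme gene, and Wdyhv1, had a fold enrichment of 5.55, 5.44 and 5.32, and none had a motif match within 100 bp of the summit. Those of adult and aged anti-IL-17 lay at Heatr4 (5.21 and 5.22), Resf1 (7.07 and 5.15) and Tmem131l (6.91 and 5.15), of which Tmem131l had the motif. In aged anti-IL-17 alone the leaders were near Hrh1, the histamine H1 receptor gene (4.53), Dstn, encoding the actin-severing protein destrin (4.33), and Thy1 (4.33), of which Hrh1 and Thy1 had the motif.

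The 3 classes with an aged IgG peak that were not in all lists were the smallest. In adult and aged IgG the leaders were near Dapp1 (6.07 and 4.34), Ptk2b (4.20 and 4.66) and in an intron of Acsl5, an acyl-CoA synthetase gene (4.43 and 4.19). In both aged lists they lay at Ccdc114 (4.34 in aged IgG and 3.98 in aged anti-IL-17), at Fam133b in an intron of the cell cycle kinase gene Cdk6 (3.84 and 3.85) and in Dkk3, a Dickkopf family gene (3.55 and 3.53), and all 3 had the motif. In aged IgG alone they were at Acsl5 (3.80) and Ankrd55 (3.69), with no match within 100 bp.

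The 10 to 50 kb peaks had as their nearest gene 1410 genes in adult, 823 in aged IgG and 1147 in aged anti-IL-17, which were 6.71%, 3.92% and 5.46% of the 21000 protein-coding genes of the annotation. A total of 1546 genes had such a peak in any list and 753 in every list. Most had a single one (1032, 689 and 919 genes), and the highest number was 8 in adult, 5 in aged IgG and 8 in aged anti-IL-17. Of these genes, 39.1% in adult, 24.4% in aged IgG and 29.2% in aged anti-IL-17 also had a peak within 10 kb of the TSS, against 15.8%, 8.09% and 11.2% of the other genes. Genes with wide surroundings offer more room for peaks at this distance, and the part of that in the gene counts was not tested.

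Tex44 had the most regions, 8 intergenic ones between 13745 and 46092 bp downstream, 5 of them in all lists. The strongest, 46092 bp away, had a fold enrichment of 10.7 in adult, 6.90 in aged IgG and 12.4 in aged anti-IL-17. Perp, a p53 target that is a component of desmosomes, had 7 regions downstream, all 7 in adult and 3 in each aged list, with a highest fold enrichment of 7.53. Casz1, encoding a zinc-finger transcription factor, had 7 regions (6 in adult, 1 in aged IgG and 5 in aged anti-IL-17), and Vgll4, a TEAD cofactor gene, had 6, all in adult, 3 in aged anti-IL-17 and 0 in aged IgG. The 6 regions of Vgll4 had fold enrichments of 2.89 to 4.02 in adult and no NF-κB motif within 100 bp of the summit.

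Ksr1, a scaffold of the MAP kinase cascade, had 6 regions, 5 of them intronic, and the strongest had 9.29 in adult, 7.91 in aged IgG and 11.1 in aged anti-IL-17. Sik1, a salt-inducible kinase gene, had 6 as well, all in adult and 3 in each aged list. Its strongest, 48320 bp upstream, had 18.4 in adult, 11.0 in aged IgG and 11.7 in aged anti-IL-17, and 3 other regions of 2.09 to 2.36 were called in adult alone. Clip1, Ppp4r2 and Sh3pxd2a had 5 regions each, and the 4 upstream regions of Ppp4r2 lay in introns of the neighbouring gene Gxylt2.

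Psma6 also had 5 regions, but 3 of these lay on the side of Nfkbia. At 35209 and 44638 bp from Psma6 the fold enrichment was 15.8 and 16.4 in adult, 10.4 and 8.91 in aged IgG and 10.5 and 13.0 in aged anti-IL-17. The start of Nfkbia was 58613 and 49184 bp away. Next in the row came the region nearest to Nfkbia by the rule, 45650 bp downstream of it, with 11.9, 14.0 and 11.3, and then regions at 31593 and 27782 bp. Binding thus extended over a chain of 6 sites between both genes (chr12:55433678-55465715), of which 5 were called in all 3 lists.

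Several genes of NF-κB itself had a 10 to 50 kb peak. The gene lists here and below were chosen with earlier results of these data known, so their shares do not test enrichment. Of the 17 genes of subunits and inhibitors, 6 (35.3%) had one in adult, 4 (23.5%) in aged IgG and 6 (35.3%) in aged anti-IL-17, to be read beside the shares of all genes above. All of these also had a peak within 10 kb of the TSS. For Rela, which encodes p65 itself, a region 11421 bp downstream had 5.40, 4.07 and 4.99. For Rel, encoding c-Rel, an intronic region had 6.71, 5.40 and 5.89. Regions of Tnfaip3, the gene of the ubiquitin-editing inhibitor A20, lay below the median of the list (2.70 to 3.46 in adult). Nfkbiz, encoding the nuclear IκBζ, and Nfkb1, encoding p105, had peaks in adult (4.51 and 2.91 at the strongest) and in aged anti-IL-17 (3.44 and 2.53) but not in aged IgG. Those of Nfkb1, and of Nfkbiz in aged anti-IL-17, lay below the list medians of 3.75 and 3.84. When each list was cut into 10 equal groups by strength, 83.1% (adult) and 70.2% (aged anti-IL-17) of 10 to 50 kb peaks in the groups of Nfkb1 were absent from aged IgG.

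Upstream of NF-κB, 4, 4 and 5 of 36 TRAF, IKK and receptor-proximal genes had a peak in adult, aged IgG and aged anti-IL-17, respectively. These were 11.1%, 11.1% and 13.9%, and this and the following lists stand beside 6.71%, 3.92% and 5.46% of all protein-coding genes. The strongest was in an intron of Traf2, a TNF receptor adaptor gene (17.4, 8.46 and 13.4), 12646 bp from its TSS. Of 37 TNF superfamily genes there were 4, 3 and 5 (10.8%, 8.11% and 13.5%), led by Tnfrsf11a, encoding RANK (6.31, 5.69 and 6.53). That list is not complete, and Tnfrsf14, outside it, also had a peak in each list of peaks. Of 66 interleukins and receptors there were 11, 8 and 7 (16.7%, 12.1% and 10.6%). Within this list, which does not hold every interleukin receptor gene, they were led by Il34, a ligand of the CSF1 receptor made by keratinocytes (9.99, 8.24 and 8.52), and Il23r, an IL-23 receptor subunit gene (8.63, 4.91 and 7.65), and Il1a had 4.69, 3.53 and 4.41. Of 52 chemokines and receptors there were 5, 3 and 4 (9.62%, 5.77% and 7.69%), close to the shares of all genes. They were led by Ackr4, an atypical scavenging receptor gene (9.78, 8.58 and 9.14). Of 28 STAT, SOCS and IRF genes there were 5, 4 and 5 (17.9%, 14.3% and 17.9%). They were led by Socs7 (8.64, 9.02 and 12.0), Stat5a (7.78, 6.64 and 7.70) and Cish, encoding a brake on cytokine signals (7.30, 5.98 and 4.91), each called in all lists. The site assigned to Stat5a lay in an intron of Stat3. Socs3, encoding a brake on STAT3, had 3 regions in adult alone (3.44 to 3.65).

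Of 33 AP-1 and early-response genes, 14 (42.4%) had a peak in adult, 11 (33.3%) in aged IgG and 12 (36.4%) in aged anti-IL-17. Their strongest regions after Ets2 were near Atf3 (15.9, 10.8 and 13.6), Klf4 (10.5, 8.11 and 8.28), Nr4a1 (8.41, 5.39 and 6.89) and Fosb (7.02, 4.91 and 4.89). Of 36 epidermal factors there were 15 (41.7%), 8 (22.2%) and 13 (36.1%), led by Ehf, an epithelial ETS factor gene (7.52, 8.34 and 4.42), and Hopx (6.84, 6.68 and 5.0). Grhl3, encoding the barrier factor of the GRHL family, had 5.47 in adult and 4.81 in aged anti-IL-17 and no peak at this distance in aged IgG.

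Of 40 keratin and cornified envelope genes, 8 (20.0%) had one in adult, 3 (7.50%) in aged IgG and 8 (20.0%) in aged anti-IL-17. This gene list is not complete, and the counts depend on its choice. Krt42, outside it, had 3 regions, 2 of them called in all lists. Krt78 led with 8.26, 4.41 and 3.98, and Tgm1, the transglutaminase that crosslinks the envelope, had 5.62 in adult and 2.79 in aged anti-IL-17. Of 46 junction and adhesion genes there were 12, 5 and 14 (26.1%, 10.9% and 30.4%), led by the tight junction gene Cldn4 (10.4, 8.03 and 6.59). Perp, described above, and Itgb6, an integrin gene, followed with highest values of 7.53 and 7.52, and then the tight junction gene Cldn1 (7.16, 6.24 and 5.50). Cdh1, encoding E-cadherin, had intronic regions of 3.96 and 3.13 in adult and 1 of 3.11 in aged anti-IL-17.

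Of 29 EGF receptor ligands and brakes, 15 (51.7%) had a peak in adult, 8 (27.6%) in aged IgG and 11 (37.9%) in aged anti-IL-17. They included the ligand genes Epgn (6.25, 5.76 and 4.89) and Tgfa (5.49, 4.08 and 4.56) and the brakes Dusp1, a MAP kinase phosphatase gene (11.7, 9.10 and 6.65), and Cbl, a ubiquitin ligase gene (11.1, 8.65 and 6.61). Of 43 Notch, Wnt and Hedgehog genes there were 13, 6 and 11 (30.2%, 14.0% and 25.6%), led after Tcf7l2 by Axin2 (6.77, 5.26 and 5.97) and Wnt3 (6.60, 4.32 and 4.14). Of 28 survival genes there were 5, 5 and 6, led by Mcl1 (6.34, 4.69 and 6.72), and of 25 oxidative stress genes 3, 2 and 2, led by the ferritin gene Fth1 (10.8, 8.24 and 12.2).

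**Figure D5:**
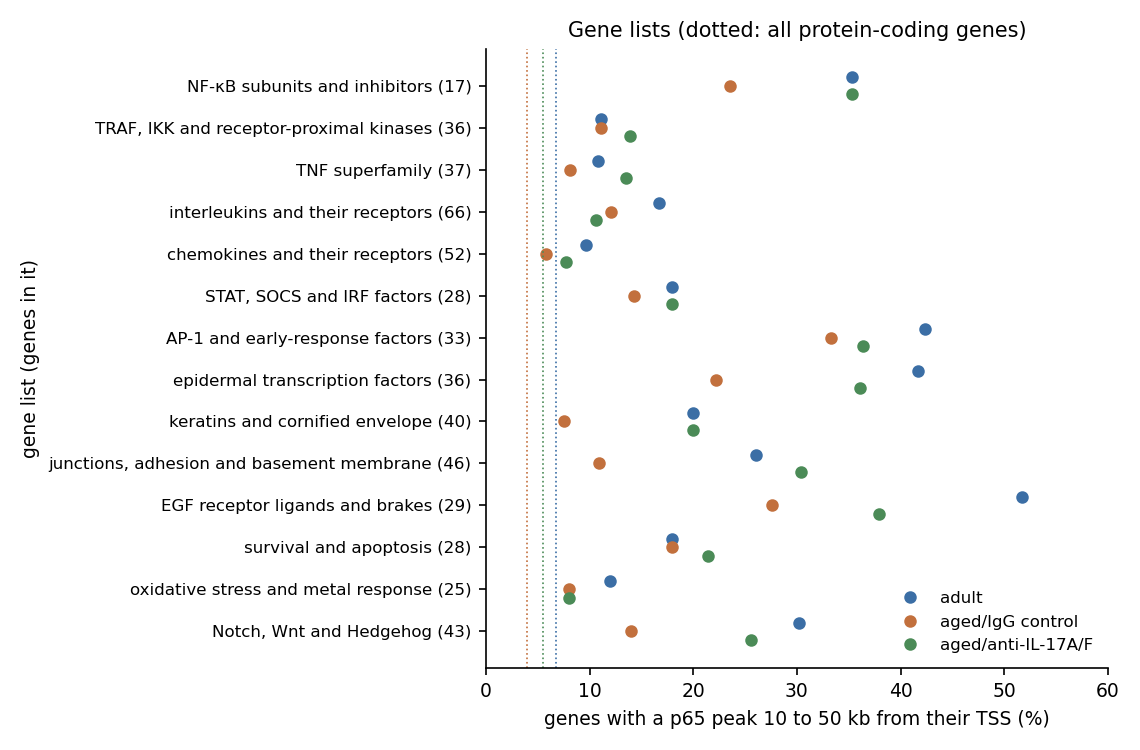
Share of the genes of 14 lists that had a p65 peak 10 to 50 kb from their TSS (x axis, %) in the 3 conditions, with the number of genes in each list in parentheses (y axis). Dotted lines are all protein-coding genes (6.71%, 3.92% and 5.46%), and the EGF receptor list in adult, at 51.7%, lies farthest to the right. The lists were chosen with earlier results of these data known, so shares right of the lines do not test enrichment.

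Marker genes of cell types were counted in the same way, which describes binding near them and not their expression. Of 11 keratinocyte markers, 3, 1 and 2 had a peak at 10 to 50 kb in adult, aged IgG and aged anti-IL-17 (27.3%, 9.09% and 18.2%), beside 6.71%, 3.92% and 5.46% of all protein-coding genes, and in lists this short 1 gene moves the share by several points. None of 8 melanocyte or 6 fibroblast markers had one in any list. Of 9 myeloid markers (11.1%, 22.2% and 11.1% with a peak) Itgam had one in each list and Itgax in aged IgG, where it lay in an intron of Itgam. Of 7 T cell markers Thy1 had one in aged anti-IL-17. The 5 endothelial markers had the higher shares of 40.0%, 40.0% and 20.0%. Of these, Vwf had weak peaks in adult and aged IgG, and Pecam1 had 3 intronic regions in each list, of which the strongest (18.6, 11.2 and 15.8) ranked near the top of each list. The part of cells other than keratinocytes in these peaks was not tested.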

How the data were processed

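p65 ChIP–seq peaks of mouse epidermal cells from 3 conditions were analysed, 1 list per condition. Reads had been trimmed (Trimmomatic 0.36), mapped to mm10, pooled over the 4 mice of each condition, deduplicated and downsampled to equal numbers by the authors, who called peaks with MACS2. Merging hides the variation between mice, and a site near the calling threshold can be in one list and not in another with little difference in signal. Whether the inputs entered the calling is not given in the sources used here. The deposited lists give for each peak the position, a score, the fold enrichment (a ratio to local background), the −log10 p-value, the −log10 q-value and the summit, as deposited by the authors.

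Here, distances ran from peak midpoints to curated RefSeq TSSs of GRCm38 (annotation release 108). Exons took precedence over introns. The NF-κB motif, 10 letters with ambiguous positions, was sought in either orientation up to 100 bp from the summit, and flanks were taken 2000 bp to either side. Peaks overlapping by at least 1 bp were shared. Shares have 95% Wilson and differences 95% Newcombe intervals. Members and gene lists were chosen with earlier results of these data known. Named regions are the 10 strongest of all 3 lists by their lowest fold enrichment, the 3 strongest of each other class, the 10 genes with most regions, and list members with examples by fold enrichment, except for a few that are not reported here. Of the 70 interleukin, 53 chemokine, 41 keratin and 9 T cell symbols, 66, 52, 40 and 7 were in the annotation. Alternatives were other thresholds, motif windows, annotation rules, overlap rules, equal peak numbers and an exchange of 2 lists. Steps were tested on simulated data. Python 3.11.15, pandas 2.3.3, pysam 0.24.0, bedtools 2.31.1 and matplotlib 3.10.9 were used.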

Additional observations from a re-analysis of the deposited data

How the results depend on the processing

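With 1 merged list per condition, no replicate could be left out. No paired analysis was possible because each condition has 1 list. Of 87 recomputed values of 15 results, 46 stayed within the counting interval of the value reported, or, for numbers of peaks, within 1.5 times of it. The others are given here in the order adult, aged IgG and aged anti-IL-17, and for sharing as adult in aged IgG, adult in aged anti-IL-17, aged IgG in adult, aged IgG in aged anti-IL-17, aged anti-IL-17 in adult and aged anti-IL-17 in aged IgG. With each list cut to the strongest peaks, as many as in the smallest, adult had 1064 peaks at 10 to 50 kb, the motif share was 42.0% in adult and 43.8% in aged anti-IL-17, and sharing was 71.6%, 75.7%, 77.0%, 77.6%, 75.3% and 72.1%, where lists of equal length give nearly equal shares in both directions by construction. At a −log10 q of at least 10, the motif share was 37.1%, 45.5% and 43.5%, and sharing was 50.2% and 66.8% for adult and 88.8% and 64.0% for aged anti-IL-17. The motif share was 25%, 30.6% and 31.2% within 50 bp of the summit, 34.8%, 43.8% and 42.6% within 200 bp and 36.5%, 45.6% and 43.8% anywhere in the peak. Counting predicted transcripts as gene models gave intronic shares of 52.0%, 53.5% and 52.4%. Sharing by summits within 100 bp was 43.5%, 59.4%, 85.8%, 82.3%, 80.3% and 56.5%, and an overlap of at least 50% of both peaks gave 92.3% for aged IgG in adult. Exchanging the adult and aged anti-IL-17 lists gave 61.1%, 86.5%, 89.2%, 94.8%, 64.0% and 47.9%. Wider windows and fewer peaks change these values by construction. Depth per peak is unknown, so an absent peak is one that was not called, not one shown to be unbound.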
